A study of Mus musculus with 4 samples.

Results

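The genes described here encode the proteins of the cytoplasmic ribosome, 48 of the large subunit and 32 of the small subunit. They were taken from the gene table of the deposited matrices by symbol: names of the form Rpl or Rps with a number and at most a 1-letter ending, which a further number may follow (Rpl13a, Rps27l, Rpl22l1), plus Rpsa, Rplp0, Rplp1 and Rplp2, without copies named as pseudogenes, and with a unique molecular identifier (UMI, 1 counted RNA molecule) in at least 100 barcodes. Of 31053 genes, 83 had such a symbol and 80 passed the limit. The member with the fewest barcodes was Rpl7l1, with UMIs in 6545, and the genes under the limit were Rpl3l with 69 barcodes, Rpl39l with 15 and Rpl10l with 0. Rpl36al, whose ending has more letters, and genes such as Fau and Rack1, whose symbols have another form, lie outside the rule.

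The study profiled single nuclei from the arcuate nucleus of the hypothalamus of wild-type male C57BL/6J mice, 10 weeks old, in 4 droplet libraries. The 2 DOCA-salt libraries came from mice that carried a deoxycorticosterone acetate pellet and had saline to drink for 3 weeks, a model of hypertension, and the 2 Sham libraries from mice that had the sham procedure. Nuclei of individual mice were pooled by treatment before capture, so each library is a mixture of animals and the library is the replicate. For DOCA-salt against Sham, p-values therefore measure the spread between pools. Where classes or depths of the same library are compared, they measure how much the differences within a library vary from library to library.

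Ribosomal proteins assemble with ribosomal RNA in the nucleolus, and the finished subunits are exported to the cytoplasm, where the small subunit reads the messenger RNA and the large subunit joins amino acids. Their messenger RNAs are made in nearly every cell and begin with a run of pyrimidines through which growth signals control their translation. In a nucleus preparation the RNA counted is what was in the nucleus or clung to it, and 3′ UMIs count molecules, so they are not divided by gene length.

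Some short sequence elements were more frequent at the start sites of these genes than at those of protein-coding genes as a whole. Of the 80 members, 60 had a promoter entry in RefSeq (GRCm38.p6, 250 bases before to 50 bases after the start). The 7 letters CCGGAAG, the core bound by ETS family factors, stood on either strand in 25 of 60 members, or 41.7%. Among the 17491 protein-coding genes with an entry the share was 12.9%. A gene was counted if any of its entries held the letters. The pyrimidine stretch CTCTTTC, searched on the gene's own strand, stood in 21.7% against 4.41%, and AAGATGG, the core bound by YY1, on either strand in 16.7% against 7.18%. GGGCGG stood in 63.3% against 49.2% and TATAAA in 11.7% against 14.8%, both on either strand. A match is a description of letters, not a site of binding. The windows below are of abundant members, read 5′ to 3′ on the gene's strand, with the ETS core, or its reverse complement CTTCCGG, in capitals. They lie at chr10:128549206-128549235 (minus strand) for Rpl41, chr9:120127567-120127596 (plus) for Rpsa, chr15:5116579-5116608 (plus) for Rpl37 and chr2:180257342-180257371 (plus) for Rps21.
Rpl41: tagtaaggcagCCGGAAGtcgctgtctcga
Rpsa: cgccccagctaCTTCCGGcctggggtctgt
Rpl37: accaagacccgCCGGAAGtagtttcctggg
Rps21: agtaccctgacCCGGAAGcacttaccgagg

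After filters on genes, UMIs and mitochondrial share, 10307 and 18907 nuclei remained in the DOCA-salt pair, and 2203 and 7759 in the Sham pair. The libraries held 21255137 to 69382757 UMIs. The median nucleus held 8215 UMIs in Sham 1 and 2401 to 3278 in the others. DOCA-salt 2 stood apart in 2 respects that touch the results: nuclei with at least 5 UMIs of Agrp, a peptide that defines a class of arcuate neurons, numbered 1 there against 354, 34 and 113 in DOCA-salt 1, Sham 1 and Sham 2, and long nuclear RNAs took 3.39% of its UMIs against 5.27% to 6.08%. Its Pomc nuclei numbered 19, against 242, 49 and 240, and its Ghrh nuclei 22, against 74, 9 and 47. Tac2 nuclei went the other way in count, with 212 in DOCA-salt 2 against 137, 36 and 98. Pairs of libraries shared 5 to 49 barcodes.

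Ribosomal protein genes took 4.28% and 5.51% of UMIs in the DOCA-salt libraries 1 and 2, against 4.56% and 4.26% in the Sham pair. DOCA-salt 2 was the highest and the other 3 lay close together, so the groups overlapped. The mean was 4.89% ± 0.87 in DOCA-salt and 4.41% ± 0.21 in Sham (SD, n = 2 each), a difference of 0.483 percentage points with an exact permutation p of 0.667, two-sided. With 2 libraries against 2 the smallest p this test can give is 0.333. Without DOCA-salt 2 the difference was -0.129, and among nuclei with 2000 to 4000 UMIs it was -0.116.

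The large subunit genes took 2.56%, 3.33%, 2.69% and 2.50% of UMIs in DOCA-salt 1, DOCA-salt 2, Sham 1 and Sham 2, and the small subunit genes 1.72%, 2.18%, 1.87% and 1.76%. The ratio of large to small was 1.48 and 1.53 in DOCA-salt against 1.44 and 1.42 in Sham. The groups did not overlap in this ratio, and the exact permutation p was 0.333, the smallest possible. Genes of the mitochondrial ribosome, which the rule leaves out, took 0.398% and 0.505% against 0.393% and 0.373%, with the same p of 0.333.

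Members differed among themselves far more than the libraries did. The most abundant was Rpl41, a very short protein of the large subunit, at 1310 and 1596 CPM (UMIs of a gene scaled to the same library total) in the DOCA-salt pair against 1618 and 1323 in the Sham pair. Rps24 of the small subunit stood at 1290 and 1976 against 1296 and 1074, and Rpl13 of the large subunit at 1260 and 1689 against 1347 and 1269. In all 3 genes the groups overlapped. Rplp1, a protein of the acidic stalk that recruits translation factors, stood at 1135 and 1390 against 1356 and 1216, and Rpsa, also known as the laminin receptor, at 1003 and 1272 against 1175 and 1038.

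At the low end, Rps27l, a paralog of Rps27, had 32.6 and 43.7 CPM in the DOCA-salt pair against 37.0 and 34.4 in the Sham pair, and Rpl7l1, a paralog of Rpl7 with a part in ribosome assembly, had 34.6 and 38.6 against 38.9 and 37.4. Rpl13a had 72.2 and 70.7 against 70.9 and 76.0. The highest member mean was 39.6 times the lowest, and the 10 most abundant members held 26.4% of the module's UMIs while the 5 least abundant held 1.02%. The median member had 524 CPM, against 11.3 for the 19946 genes found in at least 5 nuclei, and 64 members were among the 500 most abundant genes. The plot of member levels shows this range.

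**Figure D1:**
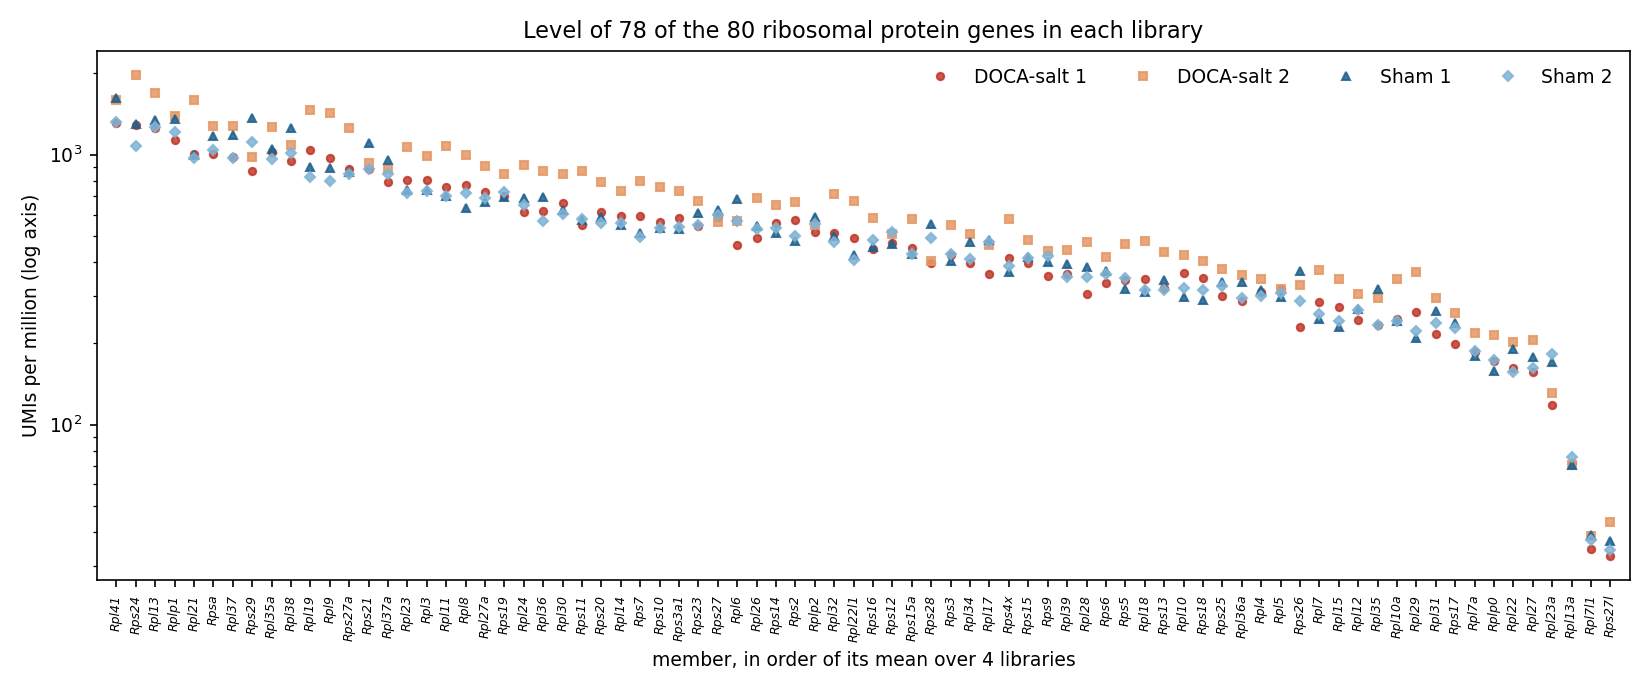
Level of 78 of the 80 members in CPM on a log axis, in each of the 4 libraries, with members ordered by their mean. The 4 points of a member lie close together beside the 39.6-fold range between members.

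The level of single members was then compared between DOCA-salt and Sham, the comparison the study was designed for. With edgeR's quasi-likelihood test on whole libraries, 0 of 80 members passed a Benjamini-Hochberg adjusted p of 0.05, and 0.00% of the 16564 genes tested did. At an unadjusted p under 0.05 there was 1 member, against 8.45% of all genes, and DESeq2 called 0 members and 107 genes. The median log2 fold change of the members was 0.10 and that of all genes 0.03.

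Rpl23a of the large subunit had the lowest p. It stood at 118 and 131 CPM in the DOCA-salt pair against 171 and 183 in the Sham pair, with both DOCA-salt libraries below both Sham libraries. The edgeR log2 fold change was -0.54 ± 0.17 (SE, adjusted p = 0.572). Rpl23a has 6 near-identical annotated copies elsewhere in the genome, so its count depends on how reads with several matches were treated. The same limit holds for the 45 members with a near-identical stretch in another annotated gene, which need not span the transcript. Among them are Rpl29, with 9 such genes, and Rps28, Rps29 and Rpl19, with 3 each.

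The next lowest p-values were those of Rps28 (log2 fold change -0.42 ± 0.19), Rpl29 (0.51 ± 0.23), Rps29 (-0.47 ± 0.23) and Rpl19 (0.50 ± 0.26), with edgeR adjusted p-values of 0.602 to 0.637. Rps29, a zinc-binding protein of the small subunit, stood at 867 and 978 CPM against 1369 and 1109, again with no overlap. Both DOCA-salt libraries lay above both Sham libraries for 30 members, or 37.5%, against 25.2% of all genes, and below for 7 members, or 8.75%, against 16.1%. Those below included Rps29, Rps27, Rplp2, Rps28, Rpl17 and Rpl23a.

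Within neurons 0 of 80 members passed (0.00% of 15826 genes; 1 member at an unadjusted p under 0.05 against 7.62% of all genes, and 0 members and 89 genes by DESeq2), with a median of 0.14 against 0.03 for all genes. In astrocytes 0 of 80 passed (0.0607% of genes), in oligodendrocytes 0 of 80 (0.00921%) and in endothelial cells 0 of the 77 that could be tested (0.139%). The largest difference among members in astrocytes was that of Rpl23a, at -0.90 ± 0.25 (edgeR adjusted p = 0.237). The calls changed with the DOCA-salt library left out. Without DOCA-salt 1, leaving DOCA-salt 2 alone against Sham, edgeR called 8 members higher in whole libraries (1.92% of all genes) and 24 in neurons (5.10%), and without DOCA-salt 2 it called 1 lower, Rpl23a (edgeR adjusted p = 0.0467), in whole libraries (1.36% of all genes) and 0 in neurons (1.09%). In astrocytes it called 10 members higher (1.13% of all genes) and 1 lower (2.34%) without DOCA-salt 1, and 4 lower (0.571%) without DOCA-salt 2. In oligodendrocytes it called 1 higher (0.538%) and 1 lower (0.201%) in the same order. The lone DOCA-salt library is then assumed to vary like the Sham pair. The plot of treatment differences shows both cases.

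**Figure D2:**
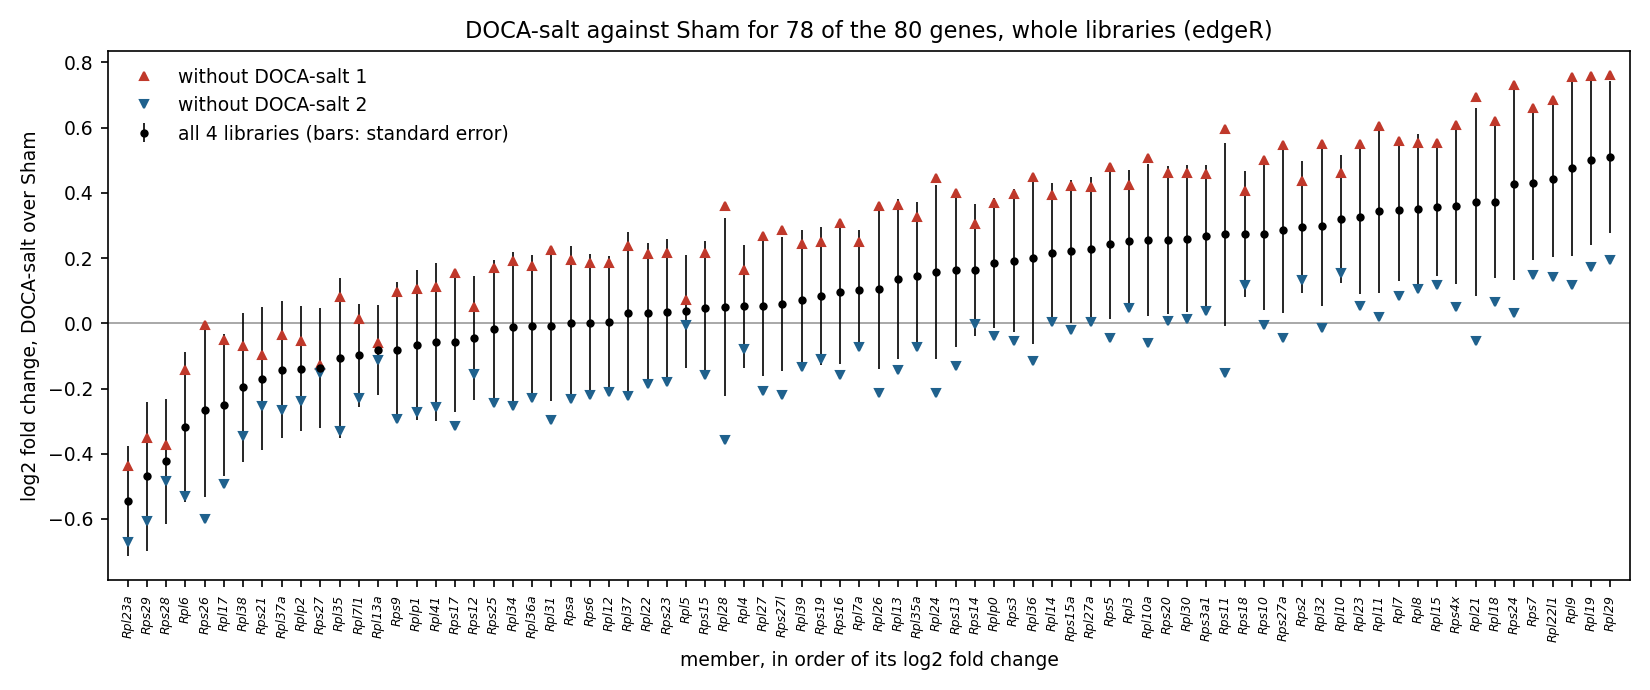
Log2 fold change of 78 of the 80 members in whole libraries, DOCA-salt over Sham, with all 4 libraries (black, bars give the standard error) and without DOCA-salt 1 or 2 (triangles). Over all members the median moved from 0.10 with all libraries to 0.32 without DOCA-salt 1 and to -0.12 without DOCA-salt 2.

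Nuclei were then sorted into classes by marker genes. A class was given where a nucleus held at least 3 of its markers. Their summed UMIs had to be at least 2 times those of any other class's markers, and other nuclei stayed unassigned. A stricter gate, used as a check, asked for 4 markers and 4 times the UMIs. In bulk sums of a class, fewer nuclei and less RNA per nucleus cannot be told apart, but shares of UMIs are free of the number of nuclei. Neurons were by far the largest class, with 6793, 11822, 1428 and 4404 nuclei in DOCA-salt 1, DOCA-salt 2, Sham 1 and Sham 2. Endothelial nuclei numbered 39, 91, 11 and 25.

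In neurons the ribosomal protein genes took 4.20%, 5.44%, 4.43% and 4.12% of UMIs in that order of libraries. In endothelial nuclei they took 5.58%, 6.65%, 6.10% and 5.65%, which was above the neurons of the same library in 4 of 4, by a mean of 1.45 percentage points (SD 0.20; exact sign-flip permutation p = 0.125, the smallest that 4 libraries allow). In oligodendrocytes they took 4.13%, 5.86%, 4.86% and 4.80%, above neurons in 3 of 4 by a mean of 0.36 (exact p = 0.25), and in astrocytes 4.16%, 5.55%, 4.70% and 4.26%, above in 3 of 4 by 0.12 (exact p = 0.25).

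Microglia took 5.93%, 8.20% and 5.66% in the 3 libraries with at least 10 such nuclei, DOCA-salt 1, DOCA-salt 2 and Sham 2, a mean of 2.01 percentage points above neurons in 3 of 3 (exact p = 0.25). They were also the shallowest of the classes listed here, with a median of 780, 673 and 1322 UMIs, and mitochondrial RNA took 7.23%, 9.49% and 7.07% of theirs. Neurons with under 1000 UMIs in the same libraries took 5.92%, 8.27% and 6.68%, above the microglial share in DOCA-salt 2 and Sham 2 and just below it in DOCA-salt 1. Sham 1 held 3 microglia and 6 oligodendrocyte precursors and was left out for both. The precursors took 3.72%, 5.48% and 3.99%, above neurons in 1 of 3. DOCA-salt 2 had the highest share in each class listed here. Neurons were deeper than the other classes listed here, with a median of 3025, 2877, 9159 and 4179 UMIs against 1127, 1018, 4565 and 2002 in astrocytes. Among nuclei with 1000 to 4000 UMIs the difference from neurons was 1.31 percentage points for endothelial nuclei (3 libraries), 0.0384 for oligodendrocytes and -0.324 for astrocytes. Nuclei were not matched in depth within that range. The median endothelial nucleus held 1231, 1337, 6375 and 1589 UMIs in DOCA-salt 1, DOCA-salt 2, Sham 1 and Sham 2. Neurons with 1000 to 2000 UMIs took 4.48%, 6.17%, 4.69% and 5.78%. The endothelial share lay above these neurons in DOCA-salt 1, DOCA-salt 2 and Sham 1 and below them in Sham 2. Mitochondrial RNA took 4.55% to 5.55% of UMIs in neurons, 6.17% to 7.10% in endothelial nuclei and 7.44% to 9.48% in astrocytes. Marker genes of neurons took 0.501% to 0.623% in neurons, 0.194% to 0.253% in endothelial nuclei, 0.193% to 0.328% in astrocytes and 0.238% to 0.409% in oligodendrocytes. The part of depth, mitochondrial RNA and neuronal RNA in these differences was not tested beyond the depth range above.

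**Figure D3:**
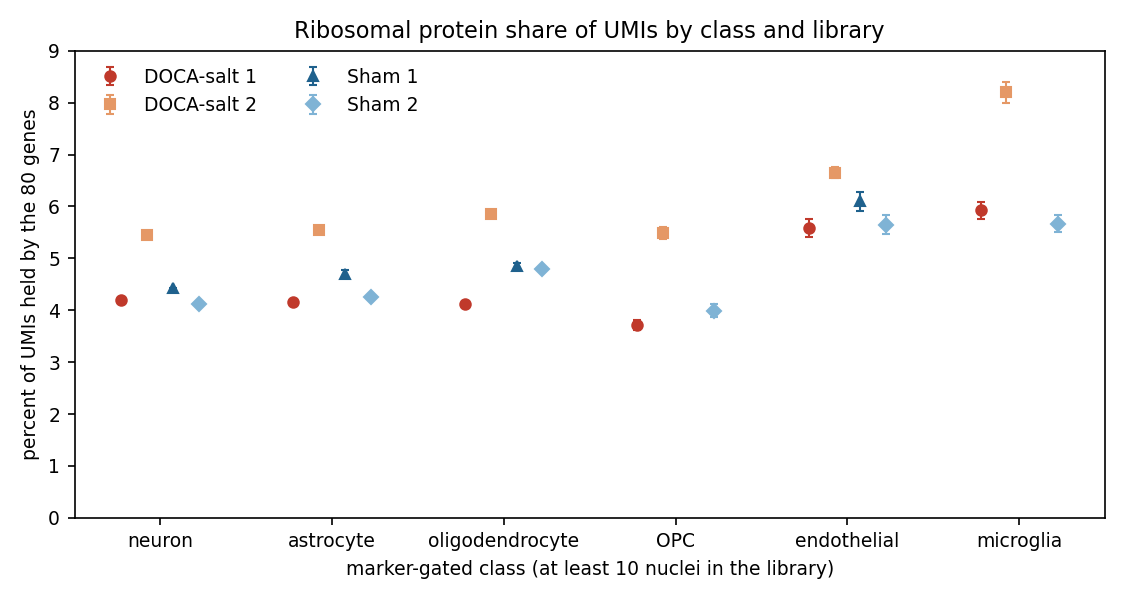
Percent of UMIs taken by ribosomal protein genes, by class of nucleus and library, with 95% Wilson intervals that cover counting error only. Endothelial nuclei, at 5.58% to 6.65%, lie above the neurons of the same library in all 4, and DOCA-salt 2 has the highest point in each class.

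Single members were compared between classes with the library as a block. In endothelial nuclei edgeR called 35 of 80 members higher than in neurons and 0 lower, where 11.3% of all genes were higher and 14.4% lower; the member median was 0.33 and that of all genes -0.26. Rplp0, the base of the stalk, rose most. It stood at 164, 201, 149 and 160 CPM in neurons and at 364, 484, 299 and 316 in endothelial nuclei. The groups did not overlap, and the log2 difference was 1.11 ± 0.17 (edgeR adjusted p = 6.4e-10).

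Rpl22, a large subunit protein that is not essential in mice, stood at 157, 196, 182 and 150 CPM in neurons and at 350, 351, 374 and 332 in endothelial nuclei, a log2 difference of 0.97 ± 0.17 (edgeR adjusted p = 1.6e-07). Rps20 rose by 0.83, as did Rps12, a small subunit protein with 14 near-identical copies in the genome. Rpl28, Rpl27a, Rpl7, Rps27 and Rpl5 were also among the 10 largest, with differences of 0.57 to 0.66. Without the block edgeR called 10 members higher, where 1390 of 13561 genes were higher and 1459 lower. These calls set endothelial nuclei against neurons of all depths, and the part of depth in them was not tested.

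In oligodendrocytes 63 of 80 members were higher and 0 lower, where 19.0% of all genes went each way; the medians were 0.28 for members and -0.03 for all genes. Rplp0 again led, at 201, 294, 185 and 245 CPM, above the neurons of the same library in 4 of 4 (log2 difference 0.64 ± 0.08, edgeR adjusted p = 1.2e-06). Rps27l rose by 0.60 ± 0.12 and Rpl22 by 0.54 ± 0.07. Scaled to total UMIs rather than by TMM, the median of all genes moved to -0.20, and 18 members were called higher and 1 lower. By that scale 1958 of 13935 genes were higher and 4555 lower. At 1000 to 4000 UMIs 21 members were called higher, where 1659 of 9769 genes were higher and 1574 lower.

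In astrocytes 36 members were higher and 1 lower, where 22.1% of all genes were higher and 23.2% lower. Rps29 rose by 0.46 ± 0.07 and Rpsa by 0.42 ± 0.07 (edgeR adjusted p = 7.7e-09 and 1.5e-07). Rpl22l1, a paralog of Rpl22, was the member that fell, at 357, 543, 311 and 286 CPM against 498, 692, 433 and 418 in neurons, lower in 4 of 4 (log2 difference -0.29 ± 0.08, edgeR adjusted p = 0.00079). With total UMIs as the scale the all-gene median was -0.21, and 9 members were higher and 7 lower. By that scale 2509 of 13947 genes were higher and 4715 lower. Without the block edgeR called 0 members in astrocytes, where it called 4007 of 13947 genes. In oligodendrocytes it called 3 members and 2482 of 13935 genes without the block. Among astrocytes and neurons with 1000 to 4000 UMIs it called 3 members higher and 1 lower. There 1770 of 9287 genes were higher and 1826 lower.

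Without Sham 1, edgeR called 44 members higher and 0 lower in microglia, where 7.20% of all genes were higher and 9.67% lower. This sets microglia against neurons of all depths. The microglial share was 5.93%, 8.20% and 5.66%, against 5.92%, 8.27% and 6.68% in neurons with under 1000 UMIs. In Sham 2 the median microglial nucleus held 1322 UMIs, above that range. The part of depth in these calls was not tested. In oligodendrocyte precursors edgeR called 1 member higher and 15 lower without Sham 1, where 7.83% of genes were higher and 11.6% lower. The higher one was Rpl13, at 1889, 3020 and 2139 CPM in the precursors of DOCA-salt 1, DOCA-salt 2 and Sham 2 against 1222, 1642 and 1211 in neurons. With Sham 1 kept edgeR called 1 member higher in microglia, where 822 of 13317 genes were higher and 1122 lower. In precursors it then called 1 member higher and 9 lower, where 1095 of 13329 genes were higher and 1590 lower.

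Rpl22l1 and Rpl22 encode proteins that can take the same place in the ribosome, and their balance differed between classes. Rpl22l1 made up 76.0%, 77.9%, 70.5% and 73.6% of the pair's UMIs in neurons, and 55.4%, 57.3%, 54.5% and 44.7% in endothelial nuclei. The endothelial values rest on 31, 106, 30 and 17 UMIs of Rpl22l1 against 25, 79, 25 and 21 of Rpl22. The endothelial share was lower in 4 of 4 libraries, by a mean of 21.5 percentage points, with an exact sign-flip p of 0.125, the smallest possible. It was also lower in astrocytes (70.3%, 70.4%, 58.5% and 64.6%, a difference of -8.58) and in oligodendrocytes (63.7%, 68.6%, 63.1% and 65.0%, a difference of -9.40), in 4 of 4 each with the same exact p of 0.125. With the stricter gate only 2 libraries kept at least 10 endothelial nuclei, and the higher of their shares lay within the neuronal range above. Rpl22l1 has 2 near-identical copies in the annotation and Rpl22 has 0. In microglia and in precursors Sham 1 was left out. Rpl22l1 was lower there in 3 of 3 libraries (mean difference -10.1, exact p = 0.25) and in 2 of 3 (-4.30, exact p = 0.5). Of the other paralogs, Rps27l made up more of its pair with Rps27 in oligodendrocytes than in neurons in 4 of 4 libraries, by 1.24 points, and Rpl7l1 less of its pair with Rpl7, by a difference of -2.08. The oligodendrocytes held only 16, 107, 43 and 87 UMIs of Rps27l and 15, 62, 27 and 77 of Rpl7l1, in the same order of libraries. Near-identical matches in other genes numbered 2 each for Rps27 and Rpl7, 1 for Rpl7l1 and 0 for Rps27l. In precursors Rpl7l1 made up more of its pair in 3 of 3 libraries, by 5.89 points (exact p = 0.25). That rests on few molecules: 6, 7 and 9 UMIs of Rpl7l1 against 41, 45 and 27 of Rpl7 in DOCA-salt 1, DOCA-salt 2 and Sham 2.

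**Figure D4:**
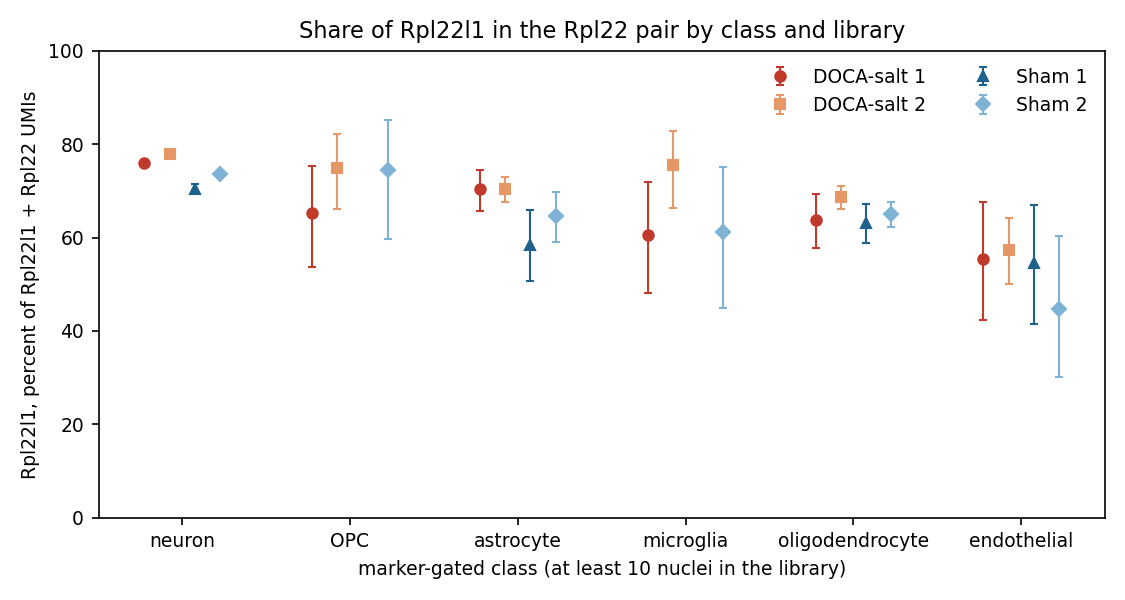
Percent of Rpl22l1 in the summed UMIs of Rpl22l1 and Rpl22, by class and library, with 95% Wilson intervals. Neurons lie at 70.5% to 77.9% and endothelial nuclei at 44.7% to 57.3%, with no overlap by the gate of at least 3 markers.

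Among neurons the share was compared between shallow and deep nuclei. In each library neurons were ordered by total UMIs and divided into quartiles, a choice made after seeing the data. The median nucleus of the lowest quartile held 1161, 1213, 4043 and 1276 UMIs, and that of the highest 7692, 7358, 17810 and 11074. The quartiles are thus not matched in depth, and the lowest of Sham 1 was deeper than that of the other libraries. In the lowest quartile the ribosomal protein genes took 4.94%, 6.74%, 5.41% and 5.92% of UMIs, and in the highest 4.12%, 5.23%, 4.11% and 4.02%. The lowest quartile was above the highest in 4 of 4 libraries, by 1.38 percentage points (SD 0.45; exact sign-flip p = 0.125). Mitochondrial RNA moved with it, at 6.14%, 7.01%, 6.05% and 7.29% in the lowest quartile and 4.45%, 5.62%, 4.58% and 4.87% in the highest, and its part in the result was not tested. Long nuclear RNAs went the other way, at 5.35%, 3.12%, 4.28% and 3.46% in the lowest quartile and 6.01%, 3.18%, 5.28% and 5.56% in the highest, which was not tested as a part of the result either. The members' own UMIs are part of the total that ordered the nuclei.

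By edgeR 79 of 80 members were higher in the lowest quartile, where 2.28% of all genes were higher and 0.967% lower, with a member median of 0.44 and an all-gene median of -0.00. Rps12 (0.65 ± 0.07), Rps21 (0.63 ± 0.06) and Rpl26 (0.63 ± 0.07) led. Rpl7l1 was the exception at 0.09 ± 0.10 (edgeR adjusted p = 0.726). With fixed ranges, 1000 to 2000 against 4000 to 8000 UMIs, all 80 members had a positive difference, with a median of 0.24, but edgeR called 0 (0.337% of genes), 23 had an unadjusted p under 0.05 against 5.34% of all genes, and DESeq2 called 0. The share was higher in the shallow range in 3 of 4 libraries, by a mean of 0.63 percentage points (SD 1.01; exact sign-flip p = 0.375). In those ranges Sham 1, with 23 shallow neurons, went the other way, at 4.69% against 5.22%.

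**Figure D5:**
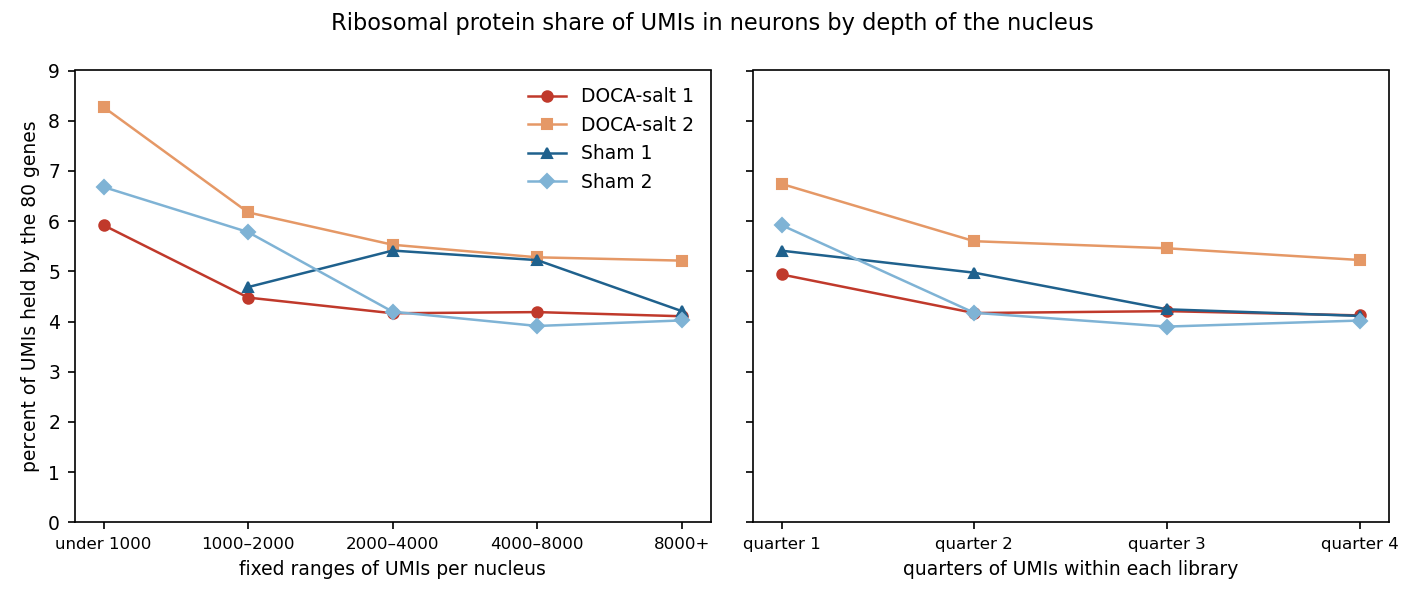
Percent of UMIs taken by ribosomal protein genes in neurons, by fixed range of UMIs per nucleus (left) and by quartile of UMIs within the library (right). The shallowest nuclei have the highest share in both panels for DOCA-salt 1, DOCA-salt 2 and Sham 2, while on the left Sham 1 lies at 4.69% in the 1000 to 2000 range and 5.22% in the 4000 to 8000 range.

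Neurons marked by glutamatergic genes had a lower share than GABAergic neurons in 4 of 4 libraries, at 4.06%, 5.33%, 3.82% and 3.83% against 4.12%, 5.50%, 4.42% and 4.09% (mean difference -0.27 percentage points, exact sign-flip p = 0.125). The gate asked for 1 UMI of glutamatergic markers or 2 of GABAergic markers and none of the other kind, and left 43 glutamatergic nuclei in Sham 1. Mitochondrial RNA was also lower in 4 of 4, at 4.01%, 4.77%, 3.78% and 4.36% against 4.34%, 5.51%, 4.73% and 4.97%, and its part was not tested. Neurons with at least 5 UMIs of Ghrh, the growth hormone releasing hormone, stood at 5.50%, 6.59%, 5.23% and 5.00%, where DOCA-salt 2 rests on 22 nuclei and Sham 1 on 9. By the same limit Pomc neurons stood at 4.64%, 5.88%, 4.38% and 4.85%, Tac2 neurons at 4.93%, 5.39%, 4.22% and 4.23%, and Agrp neurons at 4.68%, 4.39% and 4.70% in the libraries other than DOCA-salt 2.

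Genes that work with the ribosome but lie outside the rule were counted from lists. Of 31 translation factors, 12 were higher and 3 lower in oligodendrocytes than in neurons, 4 and 9 in astrocytes, and 6 and 4 in endothelial nuclei. Over all genes the shares higher and lower were 19.0% and 19.0%, 22.1% and 23.2%, and 11.3% and 14.4% in that order. Of 30 genes of ribosome biogenesis, 5 were higher and 6 lower in oligodendrocytes, 0 and 12 in astrocytes, and 1 and 4 in endothelial nuclei, to be read against the same shares. Nothing particular to either list was tested. In the lowest quartile of neurons 9 translation factors were higher and 0 lower, and edgeR called 0 of the biogenesis genes. In that comparison 2.28% of all genes were higher and 0.967% lower. The treatment comparison gave 0 calls by edgeR in either list, beside 0.00% of all genes in whole libraries. Fau, which encodes a small subunit protein fused to a ubiquitin-like one, stood at 1009 and 1416 CPM in the DOCA-salt pair against 1033 and 877 in the Sham pair, within the range of the most abundant members.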

How the data were processed

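Single-nucleus 3′ libraries were made with the 10x Genomics v3 chemistry from pooled nuclei. The deposited files hold raw UMI counts per gene and barcode, which the authors made with Cell Ranger 3.0.1 on mm10 per the submitters' processing notes; in the study's mapping statistics intronic reads stand apart from the exonic reads, which exceed those assigned to the transcriptome. Barcodes with over 200 and under 7000 genes, under 25000 UMIs and under 15% mitochondrial UMIs were kept. No doublet caller was run, and nuclei with mixed markers stayed unassigned. Counts were summed per library and class and tested with edgeR 4.0.16 (quasi-likelihood, TMM, Benjamini-Hochberg over all genes tested) in R 4.3.3; DESeq2 1.42.0 was the alternative. Differences between classes or depths within a library used the library as a block. Members named were the 10 largest called in each direction that moved the same way in every library, or the 5 of lowest p where none was called. The members and lists were chosen with earlier results of these data known. Near-identical copies were sought with BLAST 2.17.0 in the GENCODE annotation. A copy was any other gene with at least 98% identity over at least 90 bases to the last 300 bases of the member's transcript. By this rule Rpl7l1 counted through 101 bases of Cd9. Scripts were tested on simulated data: with whole libraries, 36% of 2-fold and 83% of 4-fold changes were recovered. Depth is given with the results, and counting error does not cover the spread between pools. Some members entered every count and test but are not reported here by name.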

Additional observations from a re-analysis of the deposited data

Results flagged for a closer look

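A signal appeared in genes that the comparisons left out. The 7 copies named as pseudogenes, or Rps27rt, with UMIs in at least 100 barcodes held 18227 UMIs, 3814 and 7232 in the DOCA-salt pair, 2182 and 4999 in the Sham pair, or 0.226% of the members' UMIs. These counts are not scaled to the size of the library. The members held 1603274 and 3820459 UMIs in the DOCA-salt pair and 968668 and 1685858 in the Sham pair. Of 14 within-library differences checked for a single library far from the others (Dixon's test, which flags about 1 group in 20 by chance), 0 passed.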

How the results depend on the processing

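The difference in share between DOCA-salt and Sham, 0.483 percentage points, reversed to -0.116 among nuclei with 2000 to 4000 UMIs and ranged from -0.129 to 1.10 when a library was left out. Members called between DOCA-salt and Sham ranged from 0 to 8 in whole libraries, 0 to 24 in neurons and 0 to 12 in the other classes when a library was left out. The replicate numbers did not pair the libraries (correlation of deviations -0.293). With the replicate block 0 members were called in each class, and with the crossed pairing 0 in whole libraries, 0 in neurons and 1 in the other classes. Over all genes the replicate block called 0 of 16564 in whole libraries and 3 of 15826 in neurons. It called 26 of 9886 in astrocytes, 2 of 10863 in oligodendrocytes and 15 of 1442 in endothelial nuclei. The crossed pairing called 58, 8, 82, 24 and 8 genes in the same order. Of class calls against neurons, 135 in all, the count was 80 with total UMIs as the scale, 13 without the library block, 25 among nuclei with 1000 to 4000 UMIs (against 100 in astrocytes and oligodendrocytes, the classes fitted there), and 87 to 143 when a library was left out. The main fits called 6320 of 13947 genes in astrocytes, 5297 of 13935 in oligodendrocytes and 3483 of 13561 in endothelial nuclei. In astrocytes the count of members was 16 by total UMIs, 18 without a filter, 0 without the block, 13 with the stricter gate and 4 at 1000 to 4000 UMIs. Over all genes it was 7224 of 13947, 6877 of 19934, 4007 of 13947, 5407 of 12984 and 3596 of 9287 in that order. In oligodendrocytes the member count was 19 by total UMIs, 3 without the block and 21 at 1000 to 4000 UMIs. Over all genes it was 6513 of 13935, 2482 of 13935 and 3233 of 9769. When a library was left out, 29 to 75 members were called there, against 4003 to 5181 genes. In endothelial nuclei 10 members were called without the block, against 2849 of 13561 genes, and 45 by total UMIs, against 3537. When a library was left out, 23 to 30 members were called there, against 2236 to 3058 genes. Quartiles in place of fixed ranges moved the depth count from 0 to 79. Without a minimum of nuclei 1 member was called in microglia (1944 of 13317 genes) and 10 in precursors (2685 of 13329 genes). Share differences from neurons moved to -0.0527 (stricter gate) and -0.324 (1000 to 4000 UMIs) in astrocytes and to 0.0384 (1000 to 4000 UMIs) in oligodendrocytes. In endothelial nuclei the difference moved to 2.13 with the stricter gate, which left only DOCA-salt 1 and 2, with 17 and 25 nuclei. The difference between quartiles moved to 0.80 with the stricter gate. With the stricter gate the Rpl22l1 difference moved to -5.02 in astrocytes and -13.2 in oligodendrocytes, lower in 4 of 4 libraries each. In endothelial nuclei it moved to -19.3, but only 2 libraries remained and their shares lay far apart (mean 58.1%, SD 23.9). In microglia it moved to -6.25, lower in 2 of 3 libraries. In precursors it moved to -9.35, also lower in 2 of 3. Rpl29 in oligodendrocytes reversed to -0.14 without DOCA-salt 2. The cause was not tested. Of 731 values for named members, that one included, 680 kept direction and side of the threshold. The threshold was newly passed in 20, no longer passed in 30, and 1 reversed. Called members were named only where they moved the same way in every library. Where none was called, the named members had not passed the threshold to begin with. The choice of names thus favoured this count.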
